A study of Mus musculus with 8 samples.

Results

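Egr1, Egr2 and Egr3 encode zinc finger transcription factors, Nr4a1, Nr4a2 and Nr4a3 encode nuclear receptors, and Nab2 encodes a corepressor that binds EGR proteins. These 7 genes were chosen by name, with earlier results of these data known. Of the 56605 probes on the array 13 carry one of the names. Of those probes 12 passed the filter on dim signals, and the 7 genes stood among 20076 genes or unnamed transcripts tested. They were measured in RAW264.7 cells, a mouse macrophage line, with 1-colour oligonucleotide arrays. Melatonin at 1 mM for 1 h preceded LPS of 0, 1, 3 or 5 h in 4 conditions, and the other 4 had the same LPS times with no melatonin. LPS, a cell wall component of Gram-negative bacteria, was used at 100 ng/ml, and all groups share the cell line and its culture medium. There is a single array per condition. An LPS time is therefore read from 2 arrays against 2 without LPS, and melatonin from 4 arrays against 4.

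EGR genes are immediate early genes: their transcription starts without new protein synthesis, through serum response factor and its ternary complex partners downstream of ERK kinases. EGR proteins bind GC-rich promoter sites, and Nab2, itself a target of EGR proteins, binds them and represses their targets. NR4A proteins are orphan receptors whose activity follows their abundance rather than a ligand. In macrophages LPS acts through Toll-like receptor 4, which switches on MAP kinases and NF-kB, and Nr4a1 is known there as a restraint on inflammatory genes.

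Groups followed the sample titles. For 3 of the 4 melatonin samples another label field names a later LPS time than the title, and for the melatonin sample at 5 h it names none. Egr2 stood at -2.86 log2 on the melatonin array titled as without LPS, against -1.96 and 3.68 on the arrays without melatonin at 0 h and 1 h. Egr2 is itself a member, so its level is no independent check of the titles. Phlda1, Dusp5 and Dusp4 are not members and were picked for this after their values were seen. They stood at -0.57, -2.03 and -1.20 log2 on the same melatonin array. Without melatonin they stood at 0.05, -2.30 and -0.62 at 0 h, and at 5.37, 3.17 and 2.08 at 1 h. The titles of the other melatonin arrays were not checked. All arrays lay on 1 slide, with an LPS time to a column and an arm to a row, so slide position cannot be told apart from treatment, nor LPS from hours in culture. All 8 macrophage markers, among them Csf1r and Lyz2, were well above background on every array, while none of 3 fibroblast and 3 epithelial markers was on any. Of the 4 T cell markers 2 passed the filter: Cd4 stood between 1.84 and 2.0025 log2 with melatonin and between 2.22 and 2.38 without it, and Cd3e between 0.26 and 0.35 with melatonin and between 0.58 and 0.71 without it. Both were lower with melatonin (limma adjusted p = 0.00808 and 0.00907), as were 5 of the 8 macrophage markers, against 25.3% of all features. The part of these markers in the melatonin results was not tested. Of 3 B cell markers only Ms4a1 passed the filter, at -4.47 to -4.29 log2 with melatonin and -4.39 to -3.95 without it.

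The regulatory stretch in front of 4 of the genes is shown first. The changes of Egr2 and Nr4a1 at 1 h were 6.26 and 5.28 log2, and those of Nr4a2 and the main Nr4a3 probe were 0.34 and 0.26. Whether the motifs relate to these changes was not tested. The RefSeq promoter table (GRCm38.p6) matched 5 of the 7 members, namely Egr2, Nr4a1, Nr4a2, Nr4a3 and Nab2. Each line gives the 250 bases before a transcription start, 5′ to 3′ on the strand of the gene, with every match to 1 of 7 motifs in capitals (CGTCA is TGACG read on the other strand).
Egr2, chr10:67537619-67537868, plus strand: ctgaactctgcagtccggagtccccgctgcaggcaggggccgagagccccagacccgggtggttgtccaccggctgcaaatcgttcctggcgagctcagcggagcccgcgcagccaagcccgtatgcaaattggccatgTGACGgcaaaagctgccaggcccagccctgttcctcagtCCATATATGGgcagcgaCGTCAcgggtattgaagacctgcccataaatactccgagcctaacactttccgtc
Nr4a1, chr15:101266596-101266845, plus strand: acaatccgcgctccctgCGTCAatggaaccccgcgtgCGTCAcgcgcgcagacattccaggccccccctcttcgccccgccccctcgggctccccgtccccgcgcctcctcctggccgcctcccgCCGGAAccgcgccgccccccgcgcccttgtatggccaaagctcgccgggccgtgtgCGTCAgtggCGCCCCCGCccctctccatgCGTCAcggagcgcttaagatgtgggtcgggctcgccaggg
Nr4a2, chr2:57124004-57124253, minus strand: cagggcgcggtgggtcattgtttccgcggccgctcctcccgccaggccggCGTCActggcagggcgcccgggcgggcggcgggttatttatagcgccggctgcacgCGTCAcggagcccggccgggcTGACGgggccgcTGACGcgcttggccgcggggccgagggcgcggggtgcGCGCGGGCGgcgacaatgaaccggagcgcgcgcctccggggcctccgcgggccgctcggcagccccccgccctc
Nr4a3, chr4:48045055-48045304, plus strand: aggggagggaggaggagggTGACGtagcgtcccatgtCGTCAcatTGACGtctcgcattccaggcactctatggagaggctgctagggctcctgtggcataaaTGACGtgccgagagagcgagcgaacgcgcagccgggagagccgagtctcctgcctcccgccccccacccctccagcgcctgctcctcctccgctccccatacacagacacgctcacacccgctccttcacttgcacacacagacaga

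Both strands were searched for the EGR site (GCGNGGGCG), the NBRE that NR4A monomers bind (AAAGGTCA), the cyclic AMP response element or CRE (TGACGTCA) and its core (TGACG), and the ETS core (CCGGAA). The CArG box of serum response factor and the NF-kB site were searched by their usual consensus. The CRE core lies within the full CRE, so a full CRE counts under both. The Egr2 window above held 1 CArG box, 72 to 63 bases before the start, between 2 CRE cores. The Nr4a1 window held 4 CRE cores, 1 EGR site and 1 ETS core, the Nr4a2 window 4 CRE cores and 1 EGR site, and the Nr4a3 window 4 CRE cores. Of 32851 promoter windows of this length 1.47% held a CArG box, 17.8% a CRE core, 4.70% an EGR site and 12.03% an ETS core. A single CRE core is thus common. These shares are of windows with 1 match or more, and the share with 4 CRE cores was not counted. RefSeq lists 5 starts for Egr2. The 3 most downstream windows overlap and share the motifs shown. The window before the start at chr10:67537316-67537565 held another CArG box and 3 ETS cores, 2 of which overlap each other. The most upstream window held 2 overlapping NF-kB matches on opposite strands, where 7.25% of all windows held an NF-kB site. Neither the NBRE (1.34% of windows) nor the full CRE (1.55%) matched in any member window, and the Nab2 window held none of the 7 motifs, which says only that these letters are absent there.

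Levels below are log2 signals minus the 75th percentile of the array, so 0 is the level that 75% of signals lie below. A change is called where the Benjamini-Hochberg adjusted p of limma over all 20076 tests is under 0.05, and SE is the standard error of the change. Levels of different genes come from different probes and are not compared. In RNA of whole cultures, fewer cells with a transcript and less of it per cell cannot be told apart.

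**Figure D1:**
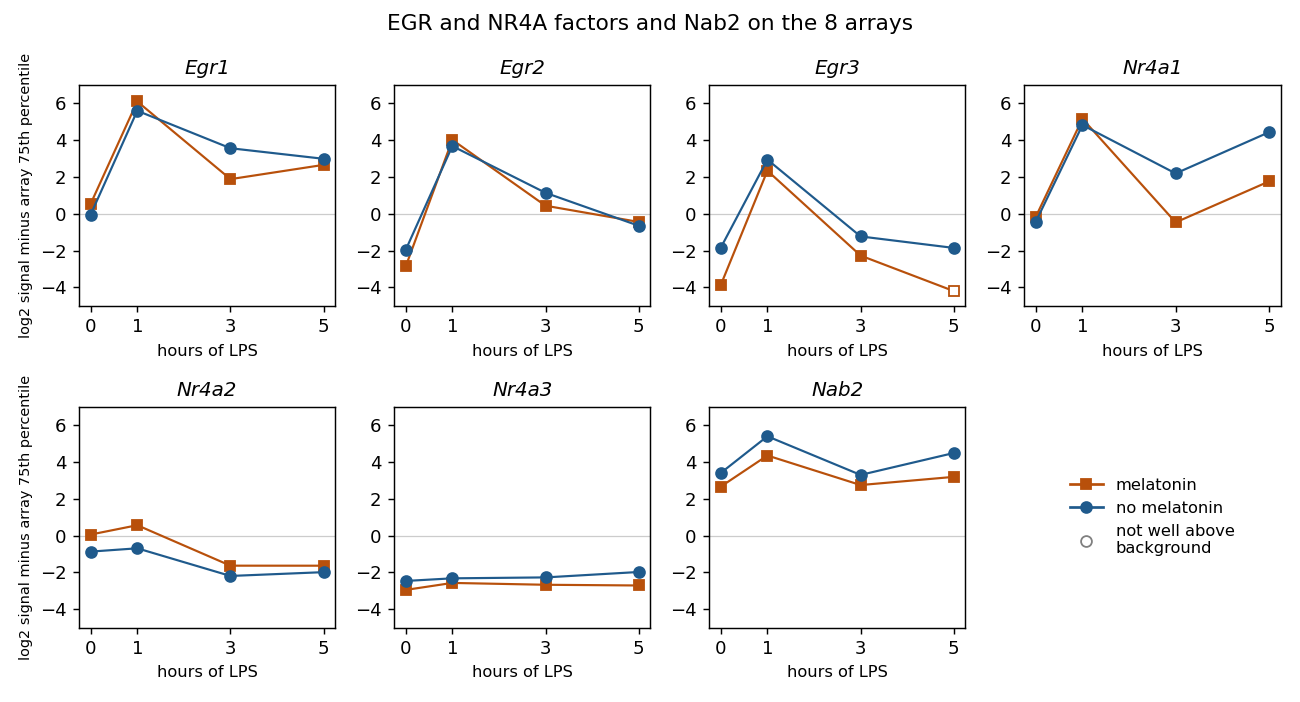
Level of each of the 7 genes (log2 signal minus the array's 75th percentile, y axis) against hours of LPS (x axis), with 1 point per array, squares for the melatonin arm and circles for the arm without it. Egr1, Egr2, Egr3, Nr4a1 and Nab2 are highest at 1 h in both arms, and Nr4a1 lies 2.66 and 2.67 log2 lower with melatonin at 3 h and 5 h; the open square marks the Egr3 value that was not well above background.

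Egr2, which in macrophages is induced by several activating signals, had the largest change of the 7 at 1 h. It stood at -2.86, 4.02, 0.44 and -0.44 log2 at 0, 1, 3 and 5 h of LPS with melatonin, and at -1.96, 3.68, 1.14 and -0.65 without it. Both 1 h arrays lay above all other arrays, both 3 h arrays came next, and both arrays without LPS were lowest. The change was 6.26 log2 at 1 h (76.6-fold, SE 0.33, limma adjusted p = 0.00135). It was 3.20 at 3 h (SE 0.33, limma adjusted p = 0.00204) and 1.87 at 5 h (SE 0.33, limma adjusted p = 0.00687). These 3 comparisons share the same 2 arrays without LPS. On mm9 the Egr2 probe lies on the plus strand of chromosome 10, from 67004758 to 67004817.

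Egr1, the family member most used as a readout of ERK signalling, stood at 0.54, 6.10, 1.88 and 2.66 log2 at 0, 1, 3 and 5 h with melatonin, and at -0.05, 5.60, 3.56 and 2.99 without it. The 1 h arrays were highest and the arrays without LPS lowest, and the 4 arrays at 3 h and 5 h lay between them. Egr1 changed by 5.60 log2 at 1 h (48.5-fold, SE 0.54, limma adjusted p = 0.00979). At 3 h the change was 2.47 (SE 0.54, limma adjusted p = 0.0185) and at 5 h 2.57 (SE 0.54, limma adjusted p = 0.012). Without the no-melatonin array at 0 h these values were 5.06, 1.93 and 2.03, and limma called none of them (adjusted p = 0.0543, 0.114 and 0.0763). The 3 h value came to 1.51 log2 without the no-melatonin array at 3 h. The 1 h call was also lost without the melatonin array at 1 h (5.11, limma adjusted p = 0.0625), and leaving out either 5 h array ended the 5 h call (limma adjusted p = 0.0581 without the melatonin one and 0.0743 without the other).

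Egr3, an EGR factor that other EGR proteins and calcium signals induce, was read by 3 probes on chromosome 14. The brightest (mm9, 70482361 to 70482420) stood at -3.87, 2.34, -2.27 and -4.20 log2 at 0, 1, 3 and 5 h with melatonin, and at -1.84, 2.94, -1.23 and -1.86 without it. Both 1 h arrays were far above the other arrays, and the melatonin array at 5 h was not well above background. The change was 5.50 log2 at 1 h (45.1-fold, SE 0.42, limma adjusted p = 0.00481), while at 3 h (1.10, SE 0.42) and at 5 h (-0.17, SE 0.42) it was not called. A probe that starts 382 bases upstream ran the same way, with 5.55 log2 at 1 h (SE 0.53, limma adjusted p = 0.00844 with each probe fitted on its own). That probe was not well above background on the melatonin arrays at 0 h and 5 h. Its 1 h change thus rests in part on a dim spot. The third probe was well above background on the 2 arrays at 1 h alone, where it stood at -3.34 log2 with melatonin and -2.90 without it. It was at least 2.66-fold higher at 1 h than without LPS, and no test is given because it passed the filter only through the 1 h arrays.

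Nr4a1, also called Nur77, stood at -0.16, 5.16, -0.47 and 1.75 log2 at 0, 1, 3 and 5 h with melatonin, and at -0.43, 4.82, 2.19 and 4.43 without it. With melatonin the 3 h array was down to the level without LPS, and the 5 h array lay above it. Without melatonin the 3 h array stayed above the array without LPS, and the 5 h array lay near the 1 h array. The mean change was 5.28 log2 at 1 h (SE 0.87, 95% interval 3.14 to 7.43), with limma adjusted p = 0.0507, just outside the threshold. With any 1 array left out this change was not called, at 4.27 to 6.30 log2. The arms lay 0.34 log2 apart at 1 h and 2.66 apart at 3 h. At 5 h Nr4a1 was higher by 3.38 log2 (SE 0.87, limma adjusted p = 0.0243), by 1.91 within the melatonin arm and 4.85 within the other. The 5 h call was lost without the no-melatonin array at 0 h (2.41, limma adjusted p = 0.141) or at 5 h (2.39, limma adjusted p = 0.153). The probe lies on the plus strand of chromosome 15 (mm9, 101105071 to 101105130).

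Nr4a2, also called Nurr1, differed from the other members in its course. It stood at 0.05, 0.56, -1.64 and -1.64 log2 at 0, 1, 3 and 5 h with melatonin, and at -0.87, -0.70, -2.20 and -1.99 without it. All 4 arrays at 3 h and 5 h lay below all 4 arrays at 0 h and 1 h, and the melatonin array was the higher one at each of the 4 times. Nr4a2 fell by 1.51 log2 at 3 h (SE 0.22, limma adjusted p = 0.00575) and by 1.40 at 5 h (SE 0.22, limma adjusted p = 0.00492). At 1 h it was not called (0.34, SE 0.22, 95% interval -0.20 to 0.89). A second probe, whose start lies 699 bases away on chromosome 2, gave -1.56 at 3 h and -1.47 at 5 h, both called when fitted on their own (limma adjusted p = 0.0173 and 0.0159).

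Nr4a3, also called NOR1, gave 3 different readings from its 3 probes on chromosome 4. The probe with the highest mean (mm9, 48064521 to 48064580) stood at -2.96, -2.58, -2.68 and -2.71 log2 with melatonin, and at -2.47, -2.33, -2.28 and -1.98 without it. Its 8 values spanned 0.97 log2, every melatonin array lay below every array without melatonin, and no LPS change was called (0.26 at 1 h, 95% interval -0.14 to 0.66). A probe that starts 1544 bases upstream of it was not well above background on any melatonin array or on the no-melatonin array at 0 h. On the other arrays without melatonin that upstream probe stood at -1.93 log2 at 1 h, -3.56 at 3 h and -3.50 at 5 h. The third probe, whose mm9 span of 48080690 to 48083876 crosses an intron, was well above background only on the no-melatonin array at 3 h, at -3.60 log2, and so missed the filter. Signal from the upstream and spliced probes was thus seen only on LPS arrays without melatonin, while the main probe gave signal on all 8. A comparison of the signals of different probes was not made, and each array is the only one of its condition.

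**Figure D2:**
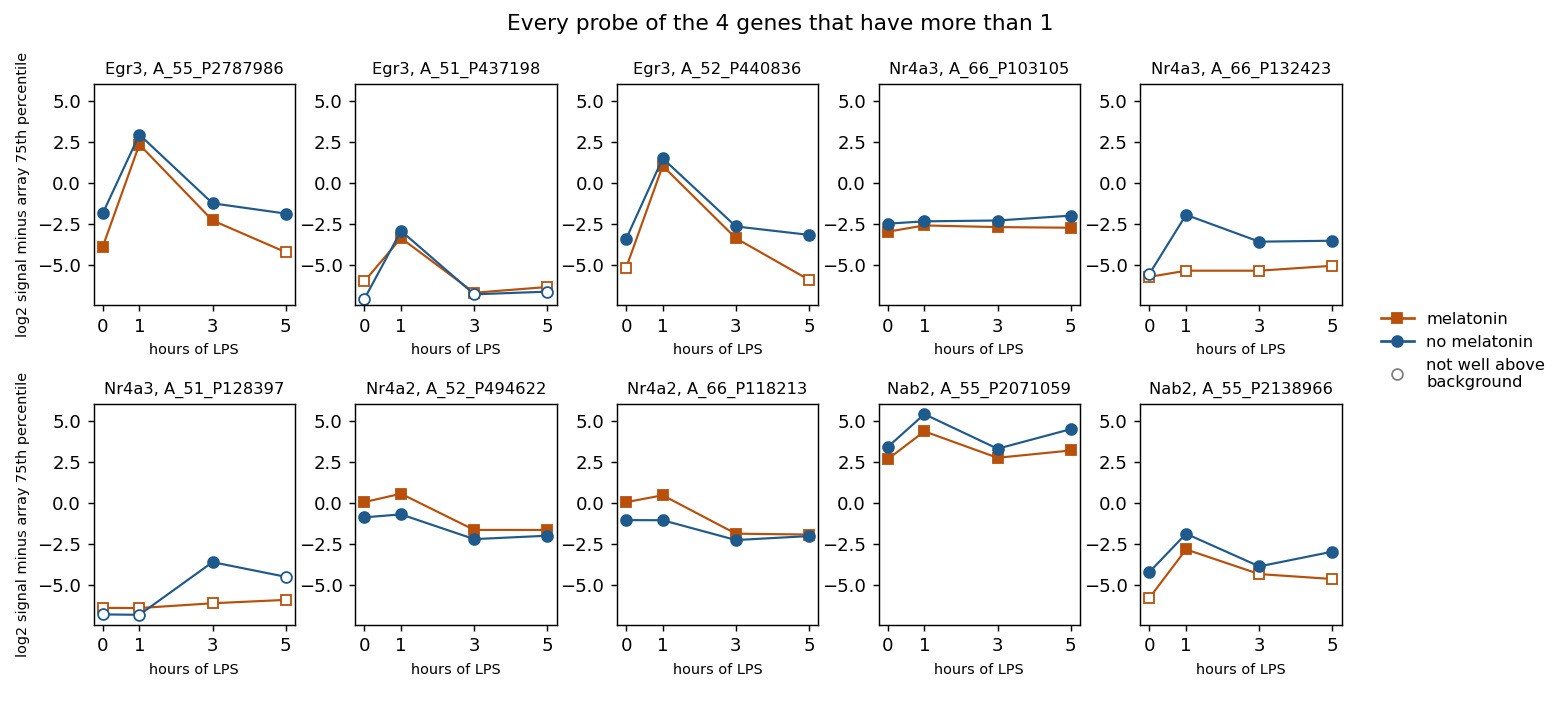
Level (log2 signal minus the array's 75th percentile, y axis) of every probe of Egr3, Nr4a3, Nr4a2 and Nab2 against hours of LPS (x axis), with 1 point per array, squares for melatonin and circles for none, open where the spot was not well above background. The probes of Egr3, Nr4a2 and Nab2 run in parallel where they are above background, whereas the 3 probes of Nr4a3 differ, with all melatonin points of 2 of them open.

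Nab2, the EGR corepressor, stood at 2.66, 4.35, 2.74 and 3.19 log2 at 0, 1, 3 and 5 h with melatonin, and at 3.40, 5.39, 3.29 and 4.48 without it. The 1 h array was highest in each arm, the 5 h array came next, and the melatonin array was the lower one at each of the 4 times. Nab2 rose by 1.84 log2 at 1 h (3.58-fold, SE 0.18, limma adjusted p = 0.01) and by 0.81 at 5 h (SE 0.18, limma adjusted p = 0.0145), with -0.01 at 3 h (SE 0.18). The 1 h call was lost without the melatonin array at 1 h, the no-melatonin array at 0 h or the no-melatonin array at 1 h (limma adjusted p = 0.0591, 0.072 and 0.0983). The 5 h call was lost without the no-melatonin array at 0 h or at 5 h (limma adjusted p = 0.0924 and 0.0737). A second probe gave 2.63 log2 at 1 h (limma adjusted p = 0.022 when fitted on its own) and was dim on 3 of the 4 melatonin arrays.

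Counted together, 4 of the 7 genes were higher at 1 h of LPS (Egr1, Egr2, Egr3 and Nab2) and none lower, where 1.96% of all features were called in either direction, 1.67% higher and 0.284% lower. The median change of the 7 was 5.28 log2, against -0.01 over all features. Because the members were chosen with earlier results of these data known, these counts only describe them. With any 1 array left out, 2 to 4 members and 95 to 320 features were called at 1 h, against 393 features with all arrays. At 3 h, 2 were higher (Egr1, Egr2) and 1 lower (Nr4a2), against 18.6% higher and 15.1% lower of all features (33.7% in either direction). At 5 h, 4 were higher (Egr1, Egr2, Nr4a1, Nab2) and 1 lower (Nr4a2), against 24.9% and 19.4% of all features (44.2% in either direction). These shares move with single arrays: without the no-melatonin array at 0 h, 2 members and 2489 features were called at 3 h, and 2 members and 4478 features at 5 h, against 6766 and 8879 features with all arrays. Without the no-melatonin array at 3 h 2590 features were called at 3 h, and without the one at 5 h 2 members and 5713 features were called at 5 h.

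**Figure D3:**
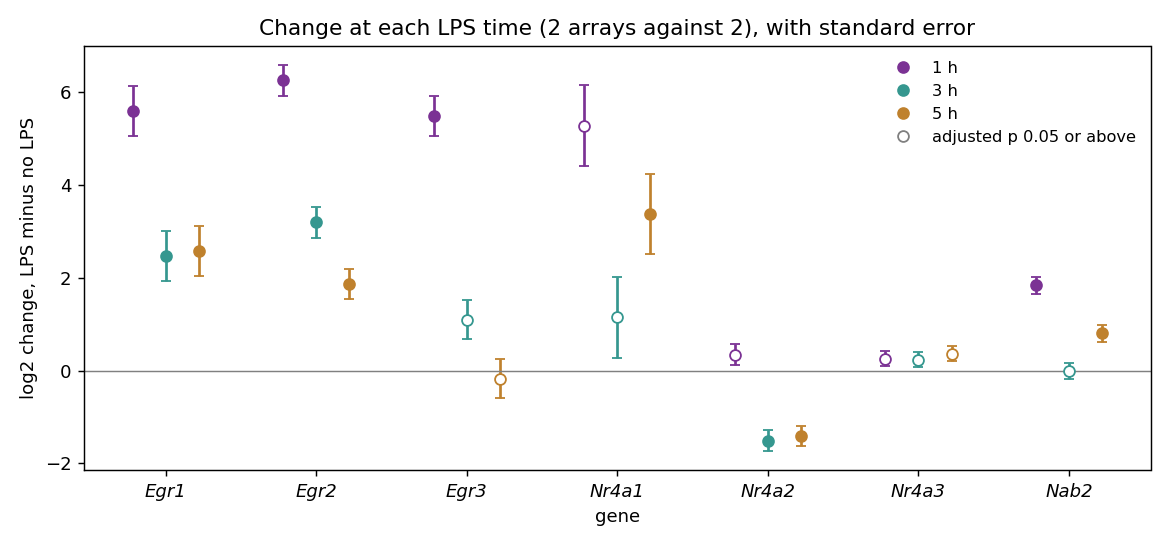
Change in level against no LPS (log2, y axis) of each gene (x axis) at 1, 3 and 5 h of LPS, with bars for the standard error of the limma fit and open points where the adjusted p is 0.05 or above. The 1 h points of Egr1, Egr2, Egr3 and Nr4a1 lie between 5.28 and 6.26, that of Nr4a1 is open with the widest bar, and only Nr4a2 has called points below 0.

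The step from 1 h to 3 h was read from arrays that the comparisons with no LPS also used. At 3 h 6 of the 7 genes were lower than at 1 h, against 6.83% of all features called lower, 8.42% higher and 15.2% in either direction. Egr3 fell by 4.39 log2 (SE 0.42, limma adjusted p = 0.00502) and Nr4a1 by 4.13 (SE 0.87, limma adjusted p = 0.0321). Egr1 and Egr2 fell by 3.13 and 3.06, and Nr4a2 and Nab2 by 1.85 each, while the main Nr4a3 probe differed by -0.03 log2. Of the 6 genes, Nr4a1 and Nr4a2 had no called rise at 1 h (5.28 and 0.34 log2). The fall of Nr4a2 took it below the level without LPS (-1.51 log2 at 3 h). Within the arms Nr4a1 changed by -5.63 log2 with melatonin and by -2.63 without it, and Egr1 by -4.22 with melatonin and -2.04 without it. The Nr4a1 call was lost without any 1 of the 4 arrays at 1 h and 3 h, with limma adjusted p between 0.0816 and 0.161. The Egr1 call was lost without either 1 h array (limma adjusted p = 0.115 without the melatonin one and 0.076 without the other). Without the no-melatonin array at 3 h the calls of Egr3 and Nr4a2 were lost (limma adjusted p = 0.0555 and 0.0627), and without the melatonin array at 1 h that of Nr4a2 (limma adjusted p = 0.0531).

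Between 5 h and 3 h limma called 0 of the 7 genes and 0.0946% of all features (0.0349% higher and 0.0598% lower), and 4 of the 7 had an unadjusted p under 0.05, as had 2937 of the 20076 features. Nr4a1 was 2.23 log2 higher at 5 h than at 3 h (SE 0.87, 95% interval 0.08 to 4.37), by 2.22 with melatonin and 2.24 without it. Nab2 was 0.82 higher (SE 0.18), whereas Egr2 (-1.34, SE 0.33) and Egr3 (-1.28, SE 0.42) were lower. The 2 arms thus gave Nr4a1 nearly the same gain over these hours from levels 2.66 log2 apart.

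Melatonin, a pineal hormone also made by immune cells, was compared with none over the 4 times. Of the 7 genes 1 was higher and 3 were lower, against 15.3% and 25.3% of all features, or 40.6% in either direction, so the share of members called is near that of the array. Nr4a2 was higher by 0.77 log2 (SE 0.16, limma adjusted p = 0.0143) and the melatonin array was the higher at 4 of 4 times. Nab2 fell by 0.91 (SE 0.13, limma adjusted p = 0.00541) and Egr3 by 1.50 (SE 0.30, limma adjusted p = 0.0134), each lower at 4 of 4 times; with normexp background correction the Egr3 value was -0.89. The main Nr4a3 probe fell by 0.47 (SE 0.11, limma adjusted p = 0.0242), a call that was lost without any 1 of the 8 arrays (limma adjusted p between 0.051 and 0.0703). Its upstream probe was at least 1.57-fold lower with melatonin, and no test is given because it passed the filter only through arrays without melatonin. The 95% intervals were -1.16 to 0.70 for Egr1, -0.83 to 0.31 for Egr2 and -2.70 to 0.34 for Nr4a1, none of which was called.

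Set out by time, the melatonin difference was not even across the LPS course for Nr4a1 and Egr1. Nr4a1 differed by 0.27, 0.34, -2.66 and -2.67 log2 at 0, 1, 3 and 5 h, so it was 6.31-fold lower with melatonin at 3 h and 6.38-fold lower at 5 h. Egr1 differed by 0.59, 0.50, -1.68 and -0.33, with its melatonin value 3.20-fold lower at 3 h. These are differences between single arrays and carry no test. Egr3 differed by -2.03, -0.60 and -1.04 log2 at 0, 1 and 3 h. At 5 h its melatonin spot was not well above background, and Egr3 was at least 4.50-fold lower with melatonin. For Nr4a2 the differences were 0.93, 1.25, 0.56 and 0.35, and for Nab2 they were -0.74, -1.04, -0.55 and -1.30. Egr2 went either way by -0.90, 0.34, -0.70 and 0.21.

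**Figure D4:**
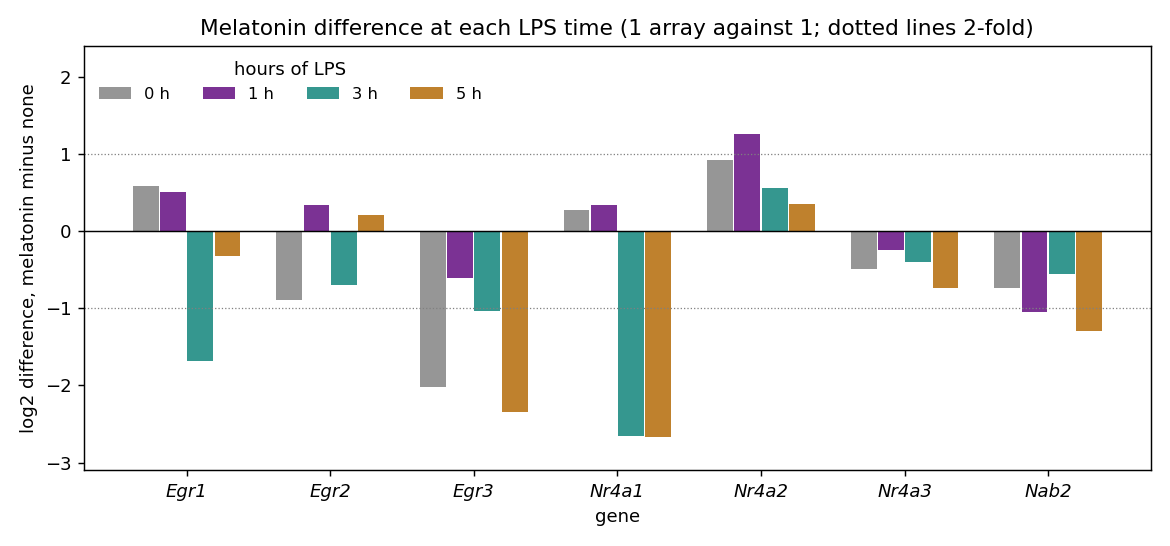
Melatonin minus none (log2 difference between 1 array and 1 array, y axis) for each gene (x axis) at 0, 1, 3 and 5 h of LPS, with dotted lines at a 2-fold difference. The bars of Nr4a1 at 3 h and 5 h reach -2.66 and -2.67, those of Egr3, Nr4a3 and Nab2 all lie below 0 (Egr3 at 5 h against a spot not well above background), and those of Nr4a2 all lie above it.

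A difference of 2-fold or more was reached lower with melatonin by 1 of the 7 genes at 0 h (Egr3), 1 at 1 h (Nab2), 3 at 3 h (Egr1, Egr3, Nr4a1) and 3 at 5 h (Egr3, Nr4a1, Nab2). The same was true of 2.61%, 3.34%, 5.42% and 4.82% of all features at those times. Higher by that much was Nr4a2 at 1 h alone, and at 0, 1, 3 and 5 h this was so of 2.14%, 3.26%, 6.02% and 5.81% of all features. Whether melatonin acted differently with LPS than without was tested as 1 term, the mean difference at 1, 3 and 5 h minus that at 0 h. limma called 0 of the 7 and 0% of all features, and no member had an unadjusted p under 0.05, while 754 features did. For Nr4a1 the term was -1.93 log2 (SE 1.25, 95% interval -5.11 to 1.24, limma adjusted p = 0.908). Leaving out either 1 h array removes that time from the term, which then came to -2.94 in both cases. It was called in those fits, but the call is not read as a result. The residual spread of Nr4a1 there is only the gap between its melatonin differences at 3 h and 5 h. Those were nearly equal, at -2.66 and -2.67 log2.

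Genes tied to these families gave the setting. Egr4, the remaining EGR gene, was well above background on the 1 h arrays alone, at -1.84 log2 with melatonin and -1.99 without it, and was at least 6.15-fold higher there than without LPS. It passed the filter only through those 2 arrays, so no test is given. Wt1, a related zinc finger factor, was not called (0.30 log2, SE 0.26). Rxra and Rxrb, retinoid X receptors that pair with Nr4a1 and Nr4a2, were not called by limma at 1 h (-0.35 and -0.31 log2). Of the 2, 1 had an unadjusted p under 0.05, as had 2999 of the 20076 features, and both receptors fell later. At 3 h Rxra was down by 1.94 log2 and Rxrb by 0.73, and at 5 h Rxra fell by 2.91 and Rxrb by 0.59 (limma adjusted p between 0.00027 and 0.00204).

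The lists below were also chosen with earlier results of these data known, so their counts are descriptive. At 1 h 1.67% of all features were called higher and 0.284% lower. Of 15 other immediate early genes 13 rose at 1 h and none fell, with a median of 3.14 log2. Dusp2 (4.94), Maff (4.81), Zfp36 (4.40) and Ier3 (3.57) changed most among them, and Rhob (1.36) and Ier5 (2.01) least. Fos (2.56, SE 0.67, limma adjusted p = 0.15) and Fosb (2.36, SE 0.62, limma adjusted p = 0.151) were not called. At 3 h against 1 h 5 of these 15 fell and 2 rose, against 6.83% of all features lower and 8.42% higher. In the EGR and NR4A group 6 of 7 were lower, and the difference between the groups was not tested. Of 10 ERK feedback genes 3 rose at 1 h, namely Phlda1 (5.48), the ERK phosphatase Dusp5 (5.31) and Dusp4 (2.72), and none fell, with a median of 0.12 log2. The smallest changes there were Etv4 (0.03) and Spred1 (-0.15). limma called none of 6 genes for serum response factor and its cofactors at 1 h. Of these, 3 had an unadjusted p under 0.05, namely Srf (0.74 log2, limma adjusted p = 0.0909), Mrtfa (-0.49) and Mrtfb (-0.37), and the smallest changes were those of Elk1 (0.06) and Elk4 (0.07). limma also called none of 12 MEF2 and CREB factors and cofactors. Of these, 2 had an unadjusted p under 0.05, namely Crtc2 (0.70) and Crtc1 (-0.23). That share is near the 2999 of 20076 features over the whole array at 1 h. The smallest changes were those of Creb1 (-0.01) and Mef2a (-0.04).

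At 3 h, where 33.7% of all features were called in either direction, 12 of the 15 other immediate early genes were higher than without LPS and at 5 h, where 44.2% were called, 11 were, with none lower. Of the 10 ERK feedback genes 4 were higher and 2 lower at 3 h, and 4 were higher and 1 lower at 5 h, where Phlda1 stood 5.99 log2 and Dusp5 4.66 log2 above the level without LPS. The change of Egr3 at 5 h was -0.17 log2; the difference between these genes was not tested. Of the MEF2 and CREB factors 2 were higher and 5 lower at 3 h, and 3 higher and 5 lower at 5 h. Melatonin is again read against 15.3% of all features called higher and 25.3% lower. With it 1 of the 15 immediate early genes was higher (Rhob, 0.81 log2) and 3 were lower, among them Maff (-1.90), 4 of the 10 ERK feedback genes were lower, among them Phlda1 (-0.60) and Dusp4 (-0.81), and of the 12 MEF2 and CREB factors 4 were higher and 4 lower.

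Likeness of course was measured as Pearson's r over the 8 arrays among 7025 genes that ranged over at least 1 log2. These values describe arrays that share LPS times, so a common peak at 1 h alone gives a high r. Ier2, an immediate early gene, came first for both Egr1 (0.98) and Nr4a1 (0.96). 1700064E03Rik and Gm30732 followed for Egr1 at 0.97 each, and Gm30732 (0.94), 1700064E03Rik (0.94) and Nfkbid (0.94) were nearest to Egr2. Egr3 was nearest to Spred3 (0.97), Klk1b3 (0.93) and Bhlhe40 (0.93). For Nr4a1 the clock gene Per1 (0.95) and Fosl2 (0.91) came next after Ier2, and Per1 (0.95) also stood near Nab2, beside Insig1 (0.95) and Traf6 (0.94). Nr4a2 ran with Cstad (0.98), Necab3 (0.98) and Ttbk1 (0.97), and the main Nr4a3 probe with Fastkd3 (0.98), Frem1 (0.98) and Ctsw (0.97). Ctsw lay below every signal well above background on all 4 melatonin arrays, and Frem1 did so at 0, 3 and 5 h with melatonin. Gm30732 did so on both arrays without LPS, and Spred3 was well above background on 2 of the 4 melatonin arrays. The r values of these genes thus rest in part on dim spots. Among the members Egr1 and Egr2 (0.95) were most alike, and Nr4a2 and the main Nr4a3 probe least (-0.51). That probe ranged over 0.97 log2, less than was asked of the 7025 genes. Its r was 0.71 with the upstream Nr4a3 probe and 0.55 with the spliced one, both dim on most arrays.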

How the data were processed

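Total RNA of 8 RAW264.7 cultures was hybridised to 1-colour (Cy3) Agilent arrays. Per the file headers, the deposited intensity values came from Agilent Feature Extraction 12.0.3.1, which subtracted the background. Flags for spots well above background and for outliers, deposited by the authors as 0 or 1, served as filters. The deposited log2 table held the same sorted values on every array; how it was computed is not stated in the labels. Values compared were log2 processed signals minus each array's 75th percentile. That percentile lay between 659.1 and 846.1, and 46.96% to 52.99% of probes were well above background. No spot was saturated.

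The filter kept 30417 probes whose signal was flagged above background on 2 or more of 8 arrays. A gene was read from its brightest probe by mean. Unnamed probes stayed as features of their own (4504), and names were updated through RefSeq accessions. limma 3.58.1 in R 4.3.3 fitted LPS time and melatonin additively (3 residual degrees of freedom), and then a further melatonin by LPS term (2). The empirical Bayes step used an intensity trend, tests were 2-sided, and p-values were adjusted over all 20076 features. The code was tested on simulated data. The labels do not say whether the cultures were independent. With 1 array per condition, the residual spread is how far the melatonin difference varies between LPS times. The SEs and p-values therefore mix array-to-array spread, which may be technical, with any uneven melatonin effect, and the number of arrays limits precision. Where 1 array is left out, its partner is assumed to vary like the others. Where a group was dim throughout, "at least" folds use the lowest signal well above background on each of its arrays.

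The genes named are all members, and of each other list up to 4 called at 1 h by size and up to 2 with the smallest change, plus the 3 most alike genes per member. Fos, Fosb, Srf, Mrtfa, Mrtfb, Crtc1, Crtc2 and the cell type markers named were chosen after their values were seen. The members and lists were chosen with earlier results of these data known. Alternatives were other scalings, background corrections, filters, probe rules and leaving out each array, and a fit per probe was added after seeing the data. Probe coordinates are those of the files (mm9), and promoters are RefSeq's (GRCm38.p6), so these coordinates are on different builds.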

Additional observations from a re-analysis of the deposited data

Results flagged for a closer look

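In 6 cases the 2 arms moved in opposite directions under the same LPS contrast, and the differences between arms below were not tested because each arm has 1 array per time. Nr4a1 at 3 h minus 0 h changed by -0.31 log2 with melatonin and 2.62 without it, a difference of -2.93. Egr1 at 5 h minus 3 h changed by 0.78 with melatonin and -0.57 without it, a difference of 1.35. The other cases were small. Nab2 at 3 h minus 0 h changed by 0.08 with melatonin and -0.11 without it (difference 0.19), and Nr4a2 at 5 h minus 3 h by -0.002 with melatonin and 0.21 without it (difference -0.21). Nr4a3 at 3 h minus 1 h changed by -0.10 with melatonin and 0.05 without it (difference -0.15), and at 5 h minus 3 h by -0.04 with melatonin and 0.29 without it (difference -0.33).

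The melatonin difference also took both signs between LPS times for 3 genes, again without a test. The highest and the lowest of the 4 differences lay 3.01 log2 apart for Nr4a1, 2.27 for Egr1 and 1.24 for Egr2.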

How the results depend on the processing

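No paired analysis was possible because each condition has 1 array and so no further replicate to pair; the fit itself sets melatonin against none within each LPS time. Calls of Egr2 at 1, 3 and 5 h and at 3 h against 1 h, of Egr3 at 1 h, of Nr4a2 at 3 h and 5 h, of Nab2 at 3 h against 1 h, and of melatonin for Egr3, Nr4a2 and Nab2 held under every setting in which 1 value stands for the gene; a requirement of signal on all 8 arrays gave no value for Egr3.

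Of the 7 members, 2 were called at 1 h with a common floor, which ended the calls of Egr1 and Nab2 (limma adjusted p = 0.0661 and 0.0631). The Nr4a1 call at 1 h was gained with probes above background on all 8 arrays (0.0492), with a mean over probes (0.0427) and with a fit per probe (0.0391). It was not gained with any 1 array left out, where the change ran from 4.27 to 6.30 log2. Nr4a1 lost its call at 5 h without a filter, with the floor and without the trend (0.0607, 0.0604 and 0.0512), and at 3 h against 1 h (0.0788, 0.076 and 0.0724). Egr1 lost its call at 3 h against 1 h with the floor (0.0528), and Nr4a3 lost the melatonin call without a filter (0.0847). With normexp Egr3 at 3 h (0.67, 0.0255) and Nr4a3 at 5 h (0.31, 0.0444) gained calls. The melatonin value of Egr3 was -0.89 with normexp, and that of Nr4a3 -1.09 with a mean over probes. Members past 2-fold numbered 2 at 0 h with a mean over probes, and 1 at 1 h with quantile scaling or the deposited table.

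With an array left out, 2 to 4 members were called at 1 h, 2 to 3 at 3 h, 2 to 5 at 5 h, 3 to 6 at 3 h against 1 h, 3 for melatonin and 0 to 1 for the melatonin by LPS term. Without an array at 0 h that term cannot be fitted. Features called then numbered 95 to 320 at 1 h (393 with all arrays), 2489 to 6816 at 3 h (6766), 4478 to 8375 at 5 h (8879), 325 to 2934 at 3 h against 1 h (3061), 1 to 21 at 5 h against 3 h (19), 4130 to 6769 for melatonin (8158) and 0 to 40 for the term (0). Other settings moved 1 h to 137 without a filter, 98 with the floor and 159 without the trend, and 3 h against 1 h to 1664 without a filter and 1682 without the trend. At 5 h against 3 h they gave 33 with quantile scaling, 33 with the deposited table, 2 without a filter, 1 with the floor and 2 without the trend.

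Signs turned only for values that were not called, except the melatonin value of Egr3 on its dim probe. That probe was well above background at 1 h alone, where its melatonin difference was -0.44 log2. Why signs turned was not tested. Nab2 at 3 h became 0.44 with a mean over probes. Egr3 at 5 h became 0.0159 with normexp. Nr4a3 at 3 h against 1 h became 0.0323 with quantile scaling, 0.0095 with normexp and 0.0343 with the deposited table. The term of Nr4a3 became -0.0127 with quantile scaling, -0.0249 with normexp, -0.0142 with the deposited table and -1.01 with a mean over probes, and that of Nab2 0.16 with the last. On their own, the dim Egr3 probe gave -0.21 at 3 h, 0.0422 at 5 h, 0.25 at 5 h against 3 h, 0.25 for melatonin and -1.09 for the term, the second Nab2 probe 0.89 at 3 h and 0.54 for the term, and the upstream Nr4a3 probe -2.04 for the term. With an array left out, values ran from -0.25 to 0.23 for Nab2 at 3 h, -0.73 to 0.39 for Egr3 at 5 h and -0.17 to 0.12 for Nr4a3 at 3 h against 1 h. At 5 h against 3 h they ran from -0.87 to 1.07 for Egr1, -0.18 to 0.38 for Nr4a2 and -0.0492 to 0.31 for Nr4a3. They ran from -0.50 to 0.25 for Egr1 under melatonin and from -0.0798 to 0.16 for the term of Nr4a3.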
